A study of Mus musculus with 16 samples.

Results

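The genes that decide between death and survival of a cell were examined in the colon of mouse pups at weaning. The group holds 41 genes matched by the gene name on the array: proteins of the BCL2 family, the proteins that mitochondria release, caspases, inhibitor of apoptosis (IAP) proteins, death receptors and their adaptors, the necroptosis pair, and p53 with its main antagonist. Of these, 40 were measured, by 78 probes, among 36711 genes tested. Bcl2a1a, a pro-survival BCL2 protein, had no probe under its own name and was covered only by a probe that also matches its near-identical copies and is named Bcl2a1d (described with the other genes of the pathway). With regard to their known role, 10 of the measured members were set on the survival side, 28 on the death side, and Casp12 and Ripk1 on neither.

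Total colon RNA was hybridised on 1-colour Agilent arrays, 1 array for each of 16 pups of the outbred RjOrl:SWISS stock. The 8 pups of the CSD group (C-section delivery) were taken from the uterus by hysterectomy shortly before term and raised by foster mothers that had delivered vaginally, and the 8 pups of the VD group (vaginal delivery) were raised after litters had been exchanged between vaginally delivering mothers. All animals were kept under specific pathogen-free conditions and sampled at weaning. CSD pups came from 2 mothers (mothers 3 and 4, each with 4 pups, 4 females and 4 males in all), and VD pups from 2 others (mother 5 with 5 pups and mother 6 with 3), of which 2 were females, both of mother 5. Delivery mode was therefore carried by 2 litters per group, and a difference between delivery modes cannot be told apart from a difference between these litters beyond what the spread among them allows. Between 61.6% and 64.9% of the spots were well above background on 15 arrays and 58.7% on that of VD pup 11, and 0 spots were saturated. The scanner software marked 205 spots of CSD pup 7 and 200 of CSD pup 8 as outliers, against 65 to 107 on each other array. The number of arrays limits the precision. All 9 colonocyte and colon markers, among them Hoxb13, Slc26a3 and Car1, passed the background test on all 16 arrays. Of 8 small intestinal genes, Apoa4, Lct, Sis and Gata4 were not well above background on any array, Fabp2, Fabp6 and Lyz1 were on all, and the Paneth cell gene Defa24 on 5 CSD and 6 VD arrays.

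As background, intrinsic apoptosis runs through the outer mitochondrial membrane: BH3-only proteins sense damage and release the effectors BAX and BAK from pro-survival BCL2 proteins, cytochrome c leaves the mitochondria, and the apoptosome activates caspase-9. The extrinsic route starts at death receptors such as FAS, whose adaptor FADD recruits caspase-8, and IAP proteins hold caspases in check downstream of both. In the intestine, where the epithelium is renewed without pause, these routes remove surplus and damaged crypt cells and shed cells at the surface, and caspase-8 also restrains necroptosis through RIPK3 and MLKL.

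Between CSD and VD pups no member passed the adjusted threshold, and the estimates were small. With limma and Benjamini-Hochberg adjustment over all genes, 0 of 40 members had an adjusted p under 0.05, whereas 1.25% of all genes did (460 of 36711). At an unadjusted p under 0.05, 5 of 40 members differed, against 14.5% of all genes (5307), and 5 to 8 with each pup left out in turn (8 without CSD pup 8). Of the 5 members 3 were higher in CSD pups, against 7.37% of all genes, and 2 were lower, against 7.09%. The number of 5 is near the background. The 5 members were Fadd, Xiap, Trp53, Bbc3 and Cycs. Hrk was well above background on 1 CSD array and 0 VD arrays, which leaves no level to compare. For the other 39 members the 95% interval of the difference lay inside a 1.5-fold change in either direction, as it did for 95.3% of all genes, and for 35 it lay inside a 1.25-fold change, against 84% of all genes. The median difference (CSD minus VD) was -0.01 on the log2 scale over these 39 members, with 17 higher and 22 lower in CSD pups, and 0 over all genes, with 18985 higher and 17726 lower. In bulk tissue, fewer cells of a type and less RNA per cell cannot be told apart.

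**Figure D1:**
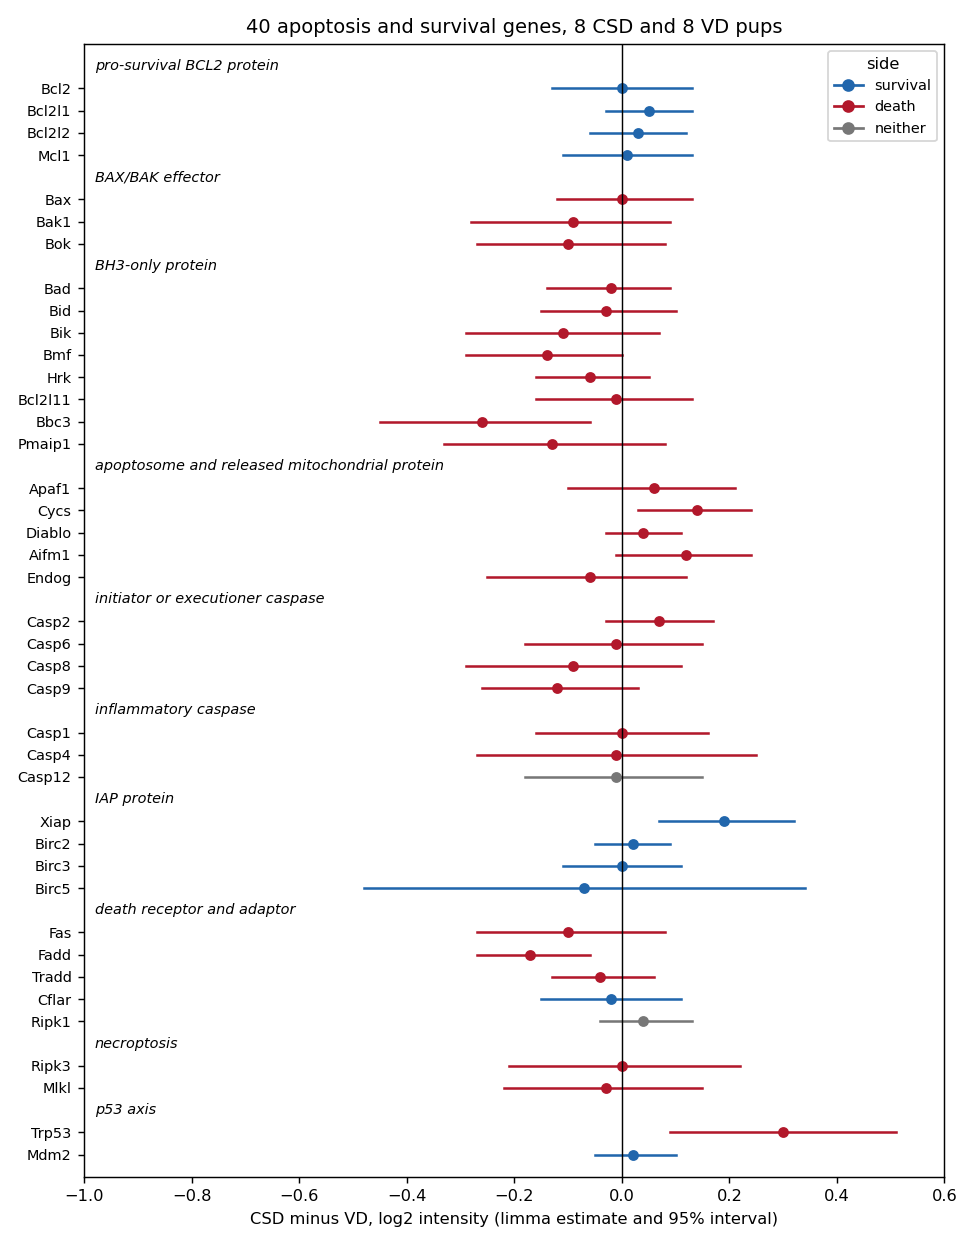
Difference between 8 CSD and 8 VD pups for each of the 40 measured members, in log2 intensity, as the limma estimate (point) with its 95% interval (line), grouped by role and coloured by side. Xiap, Cycs and Trp53 lie right of 0 with their intervals, Fadd and Bbc3 left of it, and every interval stays within a 1.5-fold change.

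Fadd, the adaptor that links death receptors to caspase-8, was the member with the smallest p. Its log2 intensity was 9.05, 9.08, 8.97, 8.73, 9.02, 8.92, 9.03 and 9.00 in CSD pups 1, 2, 3, 5, 6, 7, 8 and 9, and 9.17, 9.10, 9.02, 9.19, 9.13, 9.21, 9.16 and 9.17 in VD pups 4 to 11. The groups overlapped through VD pup 6 alone on the low side, since the other 7 VD pups were above every CSD pup, and CSD pup 5 was the lowest of all. The limma estimate was below 0 (-0.17, SE 0.05, n = 8 per group, unadjusted p = 0.00401), but its Benjamini-Hochberg adjusted p was 0.114. The exact two-sided permutation test of the 16 pups, which takes neither sex nor mother into account, gave p = 0.000932 (smallest possible 0.000155). The same test over litters, 2 against 2, cannot go below 0.333. Without CSD pup 5 the difference was -0.14 (adjusted p = 0.0908 by limma, with a range of 0.0361 to 0.595 over all alternatives). The lowest was that without the litter of mother 6, a setting in which 2265 of all genes were called. Fadd has 1 probe, of which 40 bases are placed at chr7:151764228-151764267 (mm9).

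Xiap, the IAP protein that binds and blocks caspases, had a higher mean in CSD pups. The lowest, median and highest values were 9.29, 9.37 and 9.68 in CSD pups and 9.07, 9.23 and 9.40 in VD pups. Hence 7 of 8 VD pups lay below every CSD pup, and VD pup 8, at 9.40, lay among them. The difference was 0.19 (SE 0.06, 95% interval 0.07 to 0.32, unadjusted p = 0.00533), with a Benjamini-Hochberg adjusted p of 0.128 in limma. It depended on the litters included, at 0.10 without the litter of mother 3 (adjusted p = 0.362 by limma) or mother 5 (0.705), 0.30 once the pups of mother 4 were left out (0.0732) and 0.23 once those of mother 6 were (0.0403). Over all alternatives the adjusted p ranged from 0.0391 to 0.705. Leaving out the litter of mother 6 raised the number of all genes called from 460 to 2265. All 3 Xiap probes pointed the same way, though unequally. The brightest, at chrX:39462720-39462779, had a mean of 12.32 ± 0.06 in CSD and 12.14 ± 0.08 in VD pups (SD, n = 8), a difference of 0.18 with SE 0.04. When each probe was fitted on its own, a fit chosen after the values by gene were seen, this probe was the only 1 of 78 member probes with a limma adjusted p under 0.05 (0.0311), against 1.74% of all probes (980 of 56366). At an unadjusted p under 0.05 there were 13 of 78, against 15.1% of all probes. The Xiap probe at chrX:39425732-39425791 differed by 0.35 (SE 0.10, adjusted p = 0.0797 by limma), and the dimmest, at chrX:39458363-39458422, by 0.04 (SE 0.08, adjusted p = 0.86).

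Trp53, which encodes p53 and is measured by 1 probe at chr11:69403134-69403193, had the largest estimate of the group. Its values in CSD pups were 10.36, 10.52, 10.31, 10.01, 10.11, 10.09, 9.56 and 9.88 (pups 1, 2, 3, 5, 6, 7, 8 and 9), and in VD pups 9.98, 10.07, 9.95, 9.63, 9.65, 9.48, 9.39 and 9.43 (pups 4 to 11). The groups overlapped: 5 CSD pups were above every VD pup, and 3 VD pups were below every CSD pup. CSD minus VD was 0.30 (SE 0.10, unadjusted p = 0.00833, adjusted p = 0.153 by limma). Within litters the means were 9.94 ± 0.31 and 10.27 ± 0.20 in CSD (mothers 3 and 4, n = 4 each) and 9.67 ± 0.33 and 9.74 ± 0.17 in VD (mother 5, n = 5, and mother 6, n = 3). The estimate depended on the litters included, as it was 0.13 without the litter of mother 4 (adjusted p = 0.646 by limma), 0.17 without that of mother 5 (0.699), 0.48 without that of mother 3 (0.0452) and 0.39 without that of mother 6 (0.0306), with a range of adjusted p from 0.0306 to 0.699 over all alternatives. Of all genes, 212 were called without mother 3 and 2265 without mother 6, against 460 with all pups.

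Bbc3, which encodes the BH3-only protein PUMA, had a lower mean in CSD pups. The lowest, median and highest values were 9.29, 9.56 and 9.70 in CSD pups and 9.47, 9.77 and 10.08 in VD pups, so that the groups overlapped, with 5 VD pups above every CSD pup and 3 CSD pups below every VD pup. The difference was -0.26 (SE 0.09, unadjusted p = 0.0125, adjusted p = 0.182 by limma). It was -0.42 without the litter of mother 5 (adjusted p = 0.0964 by limma), -0.30 without mother 4 (0.295), -0.20 without mother 3 (0.435) and -0.17 without mother 6 (0.194), and its adjusted p ranged from 0.0964 to 0.649 over all alternatives. Cycs, which encodes cytochrome c, had a higher mean in CSD pups, with values from 13.97 over a median of 14.10 to 14.20, against 13.77, 13.95 and 14.07 in VD pups. Here 5 CSD pups were above every VD pup and 5 VD pups below every CSD pup. The difference was 0.14 (SE 0.05, unadjusted p = 0.0147, adjusted p = 0.196 by limma), and it came mostly from the dimmer of 2 probes (0.20, SE 0.05, adjusted p = 0.0674 by limma), the other differing by 0.07 (SE 0.05). In none of the 40 members did all CSD pups lie apart from all VD pups, which was the case for 0.493% of all genes (180 of 36493 with a value on each array).

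Each of the 2 slides carried 4 CSD and 4 VD arrays. With slide as a fixed effect the estimates of the 5 members were the same to 2 decimals. On slide 1 and slide 2 alone, the differences were -0.17 and -0.16 for Fadd, 0.30 and 0.30 for Trp53, -0.21 and -0.30 for Bbc3, 0.29 and 0.09 for Xiap, and 0.18 and 0.09 for Cycs, so that those of Xiap and Cycs were larger on slide 1.

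**Figure D2:**
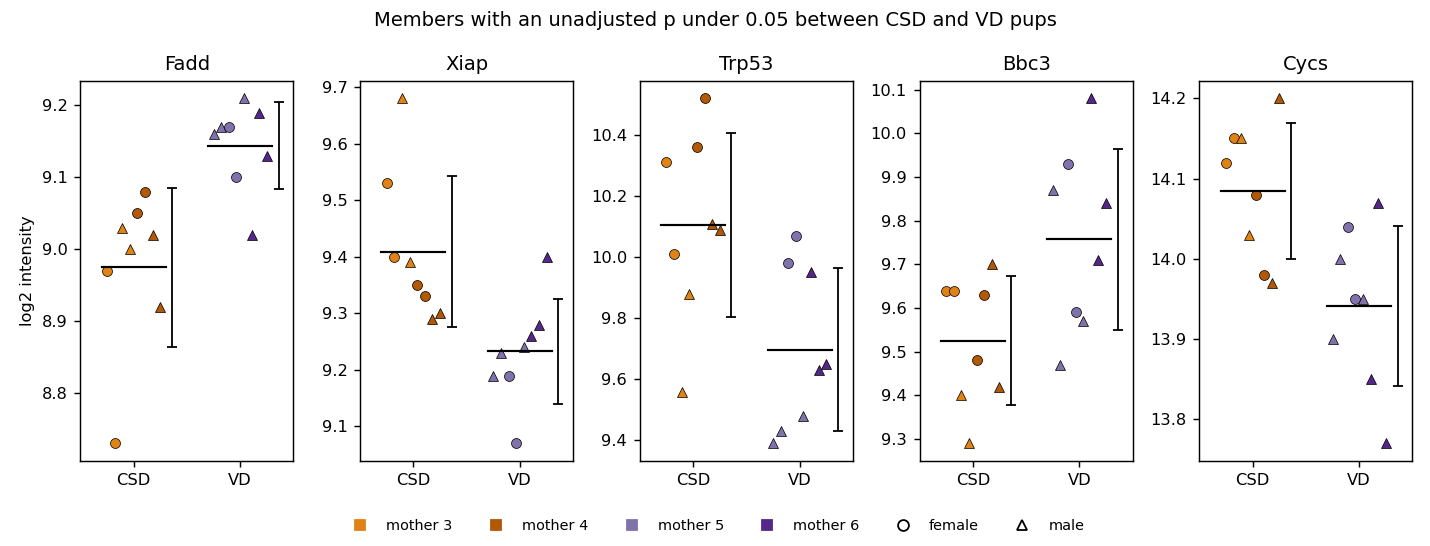
Log2 intensity of the 5 members with an unadjusted p under 0.05 in each pup, CSD and VD, with the group mean (line) and SD (bar, n = 8), coloured by mother and shaped by sex. In each panel the groups differ in mean and overlap, and in the Trp53 panel females (circles) sit above the males (triangles) of the same litter in each of the 3 litters with both sexes.

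Within the BCL2 family, the 4 pro-survival members measured, Bcl2, Bcl2l1 (BCL-XL), Bcl2l2 (BCL-W) and Mcl1, differed by between 0 and 0.05, and the interval of each stayed within a 1.25-fold change. Bcl2l1 had the smallest p of them (difference 0.05, SE 0.04, unadjusted p = 0.232). Of the effectors, Bak1 (-0.09, SE 0.09) and Bok (-0.10, SE 0.08) had negative estimates and Bax was at 0 (SE 0.06). Bok was at -0.05 without CSD pup 7 and -0.15 without CSD pup 9, and changed sign in 3 of 37 alternatives. The 7 BH3-only members other than Hrk had an estimate below 0, with a median of -0.11, but only Bbc3 had an unadjusted p under 0.05. Bmf (-0.14, SE 0.07, unadjusted p = 0.0525), Pmaip1 (NOXA, -0.13, SE 0.10) and Bik (-0.11, SE 0.08) followed, and Bad, Bid and Bcl2l11 (BIM) were between -0.03 and -0.01. The shared direction depended on the setting. Of the 7 BH3-only members, the number below 0 was 4 without the litter of mother 5, 5 in males alone, on slide 2, without the litter of mother 4 and with scanner-corrected intensities scaled to the 75th percentile, and 6 with the same intensities and quantile normalisation, on slide 1, with the replicate number as a block and without the litter of mother 3 or of mother 6. Of the single pups left out, VD pup 4 or CSD pup 6 left 5 below 0, and CSD pup 2, CSD pup 8 or VD pup 6 left 6.

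Downstream of the mitochondria, Aifm1, an oxidoreductase that moves to the nucleus in dying cells, was at 0.12 (SE 0.06, unadjusted p = 0.0751), Diablo (SMAC, an antagonist of IAP proteins) at 0.04 (SE 0.03), Apaf1 (the scaffold of the apoptosome) at 0.06 (SE 0.07) and the nuclease gene Endog at -0.06 (SE 0.09). Among initiator and executioner caspases, Casp9 had the smallest p (-0.12, SE 0.07, unadjusted p = 0.115), Casp2 was at 0.07 (SE 0.05), Casp8 at -0.09 (SE 0.10) and Casp6 at -0.01 (SE 0.08). Inflammatory caspases were close to 0: Casp1 at 0 (SE 0.08), Casp4 at -0.01 (SE 0.12) and Casp12 at -0.01 (SE 0.08). Of the other IAP genes, Birc2 was at 0.02 (SE 0.03), Birc3 at 0 (SE 0.05) and Birc5 (survivin) at -0.07 (SE 0.19). Fas was at -0.10 (SE 0.08), the TNF receptor adaptor Tradd at -0.04 (SE 0.04), the caspase-8 inhibitor Cflar at -0.02 (SE 0.06) and the kinase gene Ripk1 at 0.04 (SE 0.04). The necroptosis genes Ripk3 (0, SE 0.10) and Mlkl (-0.03, SE 0.09, unadjusted p = 0.726) had no unadjusted p under 0.05, nor did Mdm2, the ubiquitin ligase that degrades p53 (0.02, SE 0.03).

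When pro-death members were set against survival members, each pup received the mean log2 intensity of the 10 survival members minus that of the 28 death members. This is a description over chosen genes and carries no test. The quantity was -0.32, -0.20, -0.26, -0.31, -0.40, -0.35, -0.36 and -0.30 in CSD pups (1, 2, 3, 5, 6, 7, 8 and 9) and -0.43, -0.38, -0.42, -0.40, -0.33, -0.35, -0.35 and -0.34 in VD pups (4 to 11). Means were -0.31 ± 0.062 and -0.37 ± 0.038 (SD, n = 8), and the groups overlapped. The difference of 0.061 was split between both sides, with 0.029 in the mean of the survival members and -0.032 in that of the death members. It ranged from 0.012 (males alone) to 0.087 (scanner-corrected intensities) over the alternatives. Without Hrk, and hence with 27 death members, the quantity was -0.47 ± 0.065 in CSD and -0.53 ± 0.039 in VD pups, a difference of 0.059.

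Probes of the same gene did not always agree. Of 22 members with several probes, 10 had probes with estimates of opposite sign, and the number was 7 of 18 over probes well above background on all arrays. Birc3, an IAP protein recruited to TNF receptors, was the clearest case. Its brightest probe (chr9:7854409-7854468) had a lower mean in CSD pups, 8.60 ± 0.09 against 8.79 ± 0.14 (difference -0.20, SE 0.06, adjusted p = 0.0994 by limma), whereas another (chr9:7856162-7856221) was at 7.87 ± 0.39 against 7.54 ± 0.15 (0.27, SE 0.14, adjusted p = 0.37). The high mean of the latter rested in part on CSD pup 5, at 8.80 where the next CSD pup was at 7.90. For Bcl2l11, the brightest probe differed by -0.16 (SE 0.07, adjusted p = 0.296 by limma), while the gene as averaged over its 4 probes was at -0.01. That average is affected by a missing value, since the dimmest probe of Bcl2l11 had none on the array of CSD pup 7, whose gene value of 7.75, the highest of all, is a mean of the other 3 probes. No other member lacked a probe value. For Ripk1, the 2 brighter probes were at 0.11 (SE 0.05) and 0.09 (SE 0.04) and the dim one at -0.07 (SE 0.08), with limma adjusted p of 0.286, 0.33 and 0.726. In Cflar, 2 probes each had a single pup far above the rest, CSD pup 2 at 10.28 on one and VD pup 11 at 10.06 on the other, while the brightest probe gave 11.47 ± 0.07 in CSD and 11.50 ± 0.07 in VD pups. Bid and Diablo each had 1 probe that was not well above background on any array. The dimmer Fas probe (6.30 ± 0.24 in CSD and 6.42 ± 0.30 in VD pups) passed this test on 3 CSD and 4 VD arrays. The dimmer Birc2 probe also passed on 3 and 4, and the dimmest Bcl2l11 probe on 2 and 1.

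**Figure D3:**
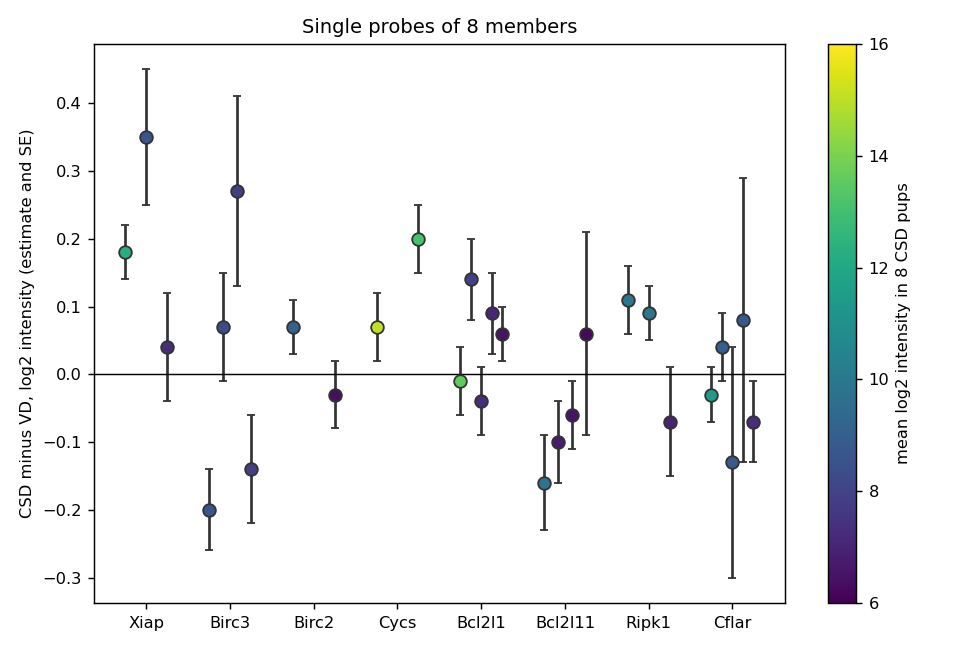
CSD minus VD in log2 intensity for the single probes of 8 members, as the limma estimate with its SE, coloured by the probe's mean in CSD pups. All Xiap and Cycs probes lie above 0, and Birc3, Birc2, Bcl2l1, Bcl2l11, Ripk1 and Cflar have probes on both sides of it.

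The sexes were then compared within the same fit. No member was called, against 0.0599% of all genes (22), and 2 of 40 members had an unadjusted p under 0.05, against 6.45% of all genes (2368), and 2 to 4 with each pup left out in turn (4 without CSD pup 8). Both had a higher mean in females, against 3.56% of all genes, and none was lower, against 2.89%. Bcl2l2, the pro-survival BCL-W, was at 10.99 ± 0.03 in 6 females and 10.80 ± 0.09 in 10 males, and 9 of 10 males lay below every female (female minus male 0.18, SE 0.04, unadjusted p = 0.000449, adjusted p = 0.314 by limma). Trp53 was at 10.21 ± 0.22 in females and 9.72 ± 0.27 in males, with 8 of 10 males below every female (0.41, SE 0.10, unadjusted p = 0.000884, adjusted p = 0.369 by limma). Trp53 means were higher in females in both delivery groups. CSD females were at 10.30 ± 0.21 and CSD males at 9.91 ± 0.26 (n = 4 each), VD females at 10.02 ± 0.06 (n = 2) and VD males at 9.59 ± 0.20 (n = 6). Bcl2l2 passed the threshold in 1 of 33 alternatives, once CSD pup 8 was left out (0.21, adjusted p = 0.0417 by limma). Over these alternatives female minus male ranged from 0.10 to 0.25 for Bcl2l2 and from 0.28 to 0.54 for Trp53.

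Whether delivery acted differently in females and males was tested by an interaction, in which the VD females are 2 littermates. It called 0 members, against 0.00272% of all genes (1 of 36709), and 3 of 40 members had an unadjusted p under 0.05, against 4.72% of all genes (1732), and 1 to 4 with each pup left out in turn (1 without VD pup 4 or CSD pup 6). The interaction was positive in 1 (2.68% of all genes) and negative in 2 (2.03%). Casp6, an executioner caspase, was at 10.71 ± 0.03 in CSD females, 10.53 ± 0.11 in CSD males, 10.49 ± 0.06 in VD females and 10.66 ± 0.18 in VD males (interaction 0.35, SE 0.13, unadjusted p = 0.0215). Bok, an effector of the BAX type, was at 10.90 ± 0.05, 11.10 ± 0.22, 11.23 ± 0.00 and 11.07 ± 0.14 in the same order (-0.35, SE 0.15, unadjusted p = 0.0316), and Fas at 8.04 ± 0.13, 8.14 ± 0.11, 8.36 ± 0.14 and 8.11 ± 0.17 (-0.35, SE 0.15, unadjusted p = 0.0324). The limma adjusted p of all 3 was 0.981. The VD males include all pups of mother 6, and all 3 members also had an unadjusted limma p under 0.05 between the VD litters. In Casp6, VD males of mother 5 (pups 9 to 11) were at 10.41, 10.53 and 10.63, and VD females at 10.54 and 10.45. Those of mother 6 (pups 6 to 8) were at 10.71, 10.80 and 10.91. Sex and litter thus cannot be fully told apart among VD pups. Over the alternatives the interaction ranged from 0.21 to 0.42 for Casp6, from -0.49 to -0.22 for Bok and from -1.32 to -0.18 for Fas, whose value was largest in size with scanner-corrected intensities and smallest with its brightest probe. The Fas values average this probe with a dim one that was well above background on only 3 CSD and 4 VD arrays.

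Litters of the same delivery mode were compared next, since they show how far the members vary when delivery is held constant. Between the CSD litters 0 members were called, against 0.0872% of all genes (32), and 3 of 40 had an unadjusted p under 0.05, against 7.68% of all genes (2819), and 2 to 5 with each pup left out in turn (5 without CSD pup 7, 8 or 9). Of these 1 was higher in the litter of mother 4 (3.62% of all genes) and 2 were lower (4.06%). They were Trp53 (mother 4 minus mother 3, 0.33, SE 0.09, adjusted p = 0.302 by limma), Xiap (-0.18, SE 0.06, adjusted p = 0.428) and Bik (-0.23, SE 0.09, adjusted p = 0.551). Xiap ranged from 9.39 to 9.68 in the litter of mother 3 and from 9.29 to 9.35 in that of mother 4, and both ranges reached into that of mother 6 (9.26 to 9.40). Without CSD pup 8 the difference was -0.12 for Xiap and -0.11 for Bik. Over the alternatives, Xiap ranged from -0.28 on slide 1 to 0 with its brightest probe, Bik from -0.41 to -0.11 and Trp53 from 0.27 to 0.39.

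Between the VD litters 0 of 40 members were called, against 0.874% of all genes (321), and 9 had an unadjusted p under 0.05, against 11.5% of all genes (4231), and 5 to 12 with each pup left out in turn (5 without VD pup 8). Of the 9, 3 were higher in the litter of mother 6 (6.16% of all genes) and 6 lower (5.36%). Casp6 came closest: 10.51 ± 0.09 (10.41 to 10.63, n = 5) with mother 5 and 10.81 ± 0.10 (10.71 to 10.91, n = 3) with mother 6, without overlap (0.34, SE 0.07, adjusted p = 0.0549 by limma). It passed the threshold without VD pup 11 (0.39, adjusted p = 0.0368 by limma). Casp8, the initiator caspase of the extrinsic route, went the other way, 11.50 ± 0.08 against 11.18 ± 0.08, again without overlap (-0.36, SE 0.10, adjusted p = 0.107 by limma). Endog (0.31, SE 0.10, adjusted p = 0.184) and Trp53 (0.26, SE 0.10, adjusted p = 0.311) had positive limma estimates. Casp4 (-0.44, SE 0.14), Bok (-0.27, SE 0.10), Bax (-0.19, SE 0.07), Birc3 (-0.16, SE 0.07) and Fas (-0.23, SE 0.10) had negative ones, with limma adjusted p between 0.186 and 0.386. Several of these values moved with the setting. Over the alternatives Fas ranged from -1.14 with scanner-corrected intensities to 0 with its brightest probe, and Trp53 from 0.07 without sex in the model to 0.31. The litter difference of Fas thus rested on its dim probe, which was near background. Casp4 ranged from -0.71 on slide 2 to -0.11 on slide 1, where the litter of mother 6 was VD pup 7 alone. Casp6 (0.29 to 0.39), Casp8 (-0.40 to -0.31) and Endog (0.27 to 0.38) moved less. All pups of one VD litter lay apart from all of the other in 8 of 40 members (Casp6, Casp8, Endog, Bok, Bik, Xiap, Birc3 and Mlkl), against 8.12% of all genes, and in 1 of 40 (Xiap) between the CSD litters, against 4.06%. Every pup of mother 6 was male, so sex enters this comparison through the model alone.

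**Figure D4:**
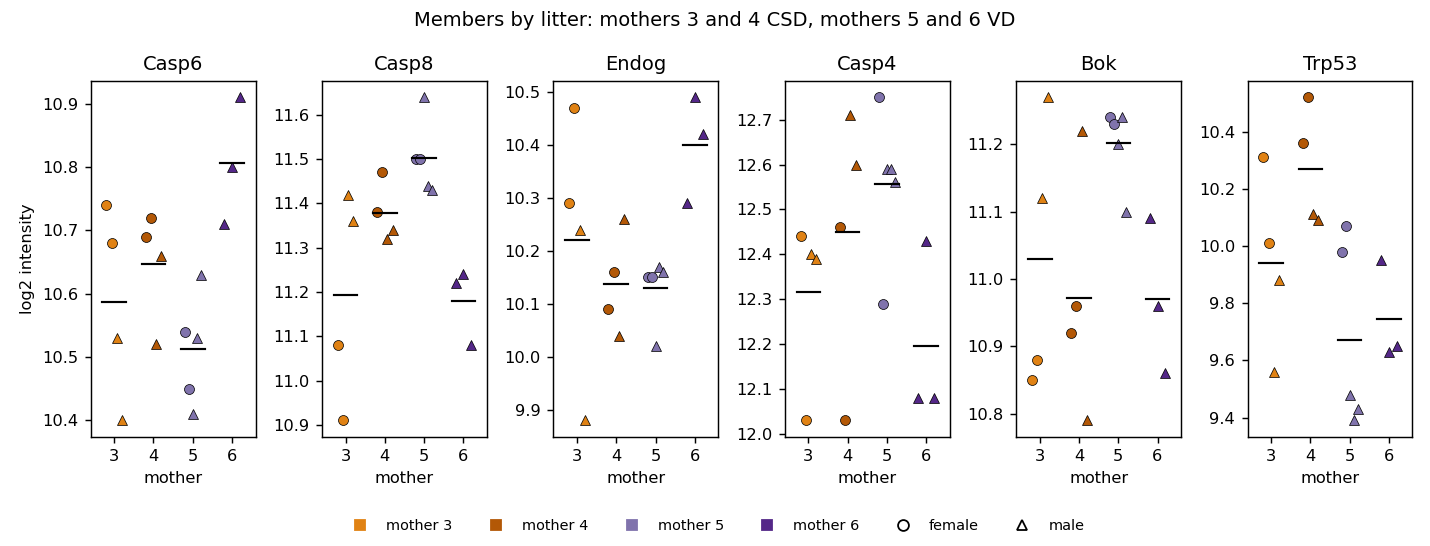
Log2 intensity of 6 members in each pup by mother (mothers 3 and 4 CSD, 5 and 6 VD), with the litter mean as a line, shaped by sex. The pups of mothers 5 and 6 do not overlap in Casp6, Casp8, Endog and Bok, and overlap in Casp4 and Trp53.

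Members also varied among pups within groups. The spread left after delivery and sex (residual SD) had a median of 0.13 over members and 0.10 over all genes, and ran from 0.05 for Diablo to 0.39 for Birc5. Birc5, an IAP protein that belongs to the chromosomal passenger complex of dividing cells, was above 96.7% of all genes in this respect. It ranged from 10.22 to 11.62 over a median of 11.34 in CSD pups and from 11 to 11.68 over 11.31 in VD pups. Its level followed the mean of 10 genes of dividing cells (among them Mki67, Top2a, Cdk1 and Plk1), a list that does not hold it but holds its complex partners Aurkb, Cdca8 and Incenp. Across the 16 pups, which share the arrays and their normalisation, Pearson's r was 0.99 and Spearman's rho 0.97, given here without a test. The r was 0.95 without CSD pups 5 and 7, the 2 farthest from the median of that mean, 1 within CSD pups and 0.95 within VD pups, and 1 and 0.98 on slides 1 and 2. The dividing-cell mean was 9.22 ± 0.34 in CSD and 9.32 ± 0.18 in VD pups, with CSD pup 5 at 8.50 and the other 7 CSD pups at 9.33 ± 0.20.

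CSD pup 5 was also low in Fadd, Casp8 and Ripk3. Fadd had an r of 0.98 with the dividing-cell mean within CSD pups (0.92 without pup 5) and 0.39 within VD pups, and 0.71 over all 16 pups. Without CSD pups 5 and 7 the latter was 0.08. For Ripk3 (r = 0.75 over 16 pups) and Casp8 (r = 0.64) the values without the 2 pups were 0.44 and 0.40, and within VD pups 0.40 and 0.37. Aifm1 kept an r of 0.79 without them (0.56 with them), 0.68 within CSD and 0.90 within VD pups, but 0.30 on slide 2. The most negative values over all 16 pups were those of Casp12 (-0.54), Endog (-0.53) and Bcl2 (-0.52), which were -0.18, -0.34 and -0.48 without the 2 pups. Without these 2 pups the most negative were Bmf (-0.63) and Bbc3 (-0.58), at -0.41 and -0.19 over all 16. Within VD pups these 2 members were at -0.80 and -0.63, and within CSD pups at -0.51 and -0.23 (0.36 and 0.09 without pup 5). Without CSD pup 5, CSD means were 11.35 ± 0.29 for Birc5, 9.01 ± 0.05 for Fadd, 10.67 ± 0.20 for Ripk3 and 11.34 ± 0.12 for Casp8 (n = 7), beside 11.31 ± 0.24, 9.15 ± 0.06, 10.65 ± 0.16 and 11.38 ± 0.18 in VD pups.

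**Figure D5:**
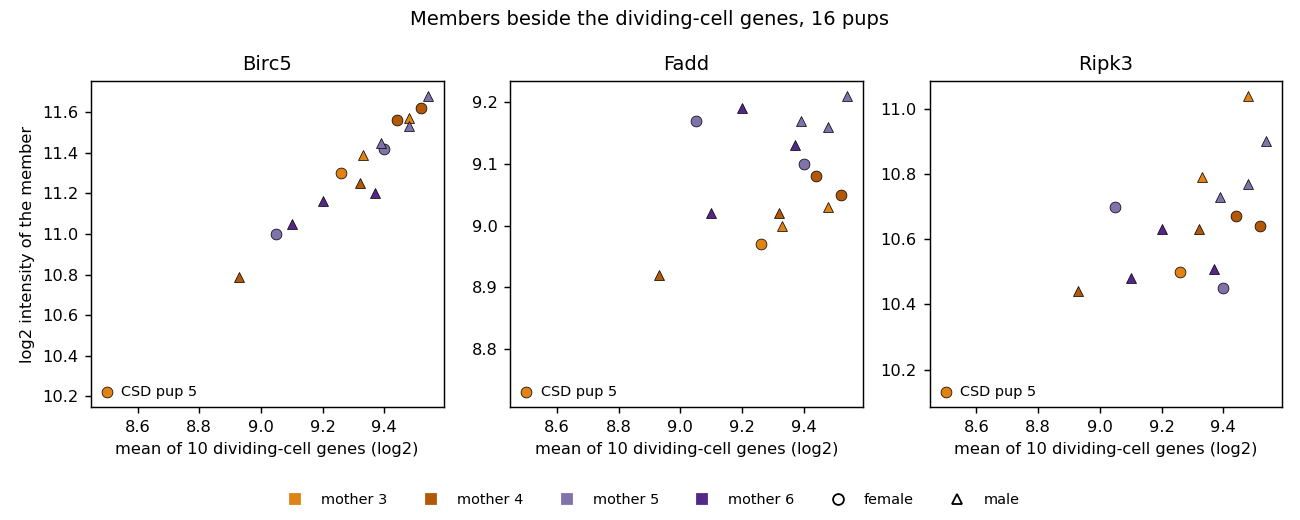
Log2 intensity of Birc5, Fadd and Ripk3 in each of 16 pups against the mean log2 intensity of 10 genes of dividing cells, coloured by mother and shaped by sex. Birc5 lies along a line through both groups, most VD pups lie above the CSD pups in Fadd, and CSD pup 5 is lowest on both axes.

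Because Trp53 had the largest estimates for delivery and sex, its known targets were examined. p53 binds DNA at pairs of a degenerate 10-base element, and Bax, Bbc3, Pmaip1, Fas, Apaf1 and Mdm2 are textbook targets among the members. Promoter windows of RefSeq (GRCm38.p6, a later build than the mm9 of the probes, 300 bases around the start of transcription) were found for 38 of the 41 members. The p53 half-site was searched on both strands and occurred in at least 1 window of 6 of the 38 (Bax, Bmf, Birc2, Birc5, Trp53 and Mdm2), against 9.6% of all genes and 8.4% of all 32851 windows. Of the 6 targets named, 5 had a window and 2 of these, Bax and Mdm2, held a match. Of 21 further regulators and targets of p53, 17 had a window and 7 held a match (Cdkn1a, Ccng1, Gadd45a, Sesn1, Aen, Ppm1d and Ei24). A match is a description of the letters and not a shown binding site. The windows of Trp53 (chr11:69580109-69580408, plus strand), Mdm2 (chr10:117710709-117711008, minus strand) and Bax (chr7:45466849-45467148, minus strand) are shown because they hold the match in p53 itself, in its antagonist and in an effector of apoptosis. Capitals mark the match.
Trp53: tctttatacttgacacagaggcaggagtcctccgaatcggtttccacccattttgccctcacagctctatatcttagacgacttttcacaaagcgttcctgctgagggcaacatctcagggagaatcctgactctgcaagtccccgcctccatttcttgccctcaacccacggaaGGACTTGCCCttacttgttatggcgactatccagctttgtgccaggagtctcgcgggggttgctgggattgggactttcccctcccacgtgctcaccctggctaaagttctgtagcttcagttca
Mdm2: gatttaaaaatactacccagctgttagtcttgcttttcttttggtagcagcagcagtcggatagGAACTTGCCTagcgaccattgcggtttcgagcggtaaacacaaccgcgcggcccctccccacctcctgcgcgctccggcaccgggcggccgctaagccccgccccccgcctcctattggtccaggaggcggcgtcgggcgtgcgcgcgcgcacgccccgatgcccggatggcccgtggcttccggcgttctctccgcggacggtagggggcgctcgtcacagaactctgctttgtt
Bax: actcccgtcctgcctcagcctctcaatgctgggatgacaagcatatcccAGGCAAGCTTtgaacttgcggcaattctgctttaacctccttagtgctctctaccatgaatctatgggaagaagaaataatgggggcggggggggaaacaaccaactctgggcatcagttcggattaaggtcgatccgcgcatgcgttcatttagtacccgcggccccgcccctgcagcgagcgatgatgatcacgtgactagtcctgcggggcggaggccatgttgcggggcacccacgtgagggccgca

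In the delivery comparison, Mdm2 was at 0.02 and Bax at 0, with 95% intervals of -0.05 to 0.10 and -0.12 to 0.13. Of the other targets named, Apaf1 was at 0.06, Bbc3 at -0.26, Pmaip1 at -0.13 and Fas at -0.10, and Bbc3 alone had an unadjusted p under 0.05. Of the 21 further regulators and targets, 11 had a positive and 10 a negative estimate (CSD minus VD, median 0.01), and 0 were called by limma. Cdkn1a (p21), the best known target, was at 0.03 (SE 0.06), and Mdm4, a relative of Mdm2 that restrains p53, had the smallest p (0.10, SE 0.03, adjusted p = 0.127 by limma) and was called in 1 alternative (0.20, adjusted p = 0.044, with the brightest probe per gene).

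Other genes of the death pathways, from lists chosen with earlier results known, were read from the same fit. Of 111 measured in 9 lists, 58 were higher and 53 lower in CSD pups, 21 had an unadjusted p under 0.05 (14.5% of all genes) and 2 were called by limma (1.25% of all genes). Ppp1r15a (GADD34, a phosphatase subunit that restores translation after endoplasmic reticulum stress) was the clearer one. It lay between 10.77 and 10.97 in CSD pups (median 10.86) and between 11.01 and 11.52 in VD pups (median 11.28), without overlap. Its difference was -0.40 (SE 0.06, adjusted p = 0.00701 by limma). Acin1, a nuclear protein cleaved by caspases during apoptosis, ranged from 8.93 to 9.41 in CSD pups (median 9.23) and from 8.83 to 9.11 in VD pups (median 8.92), and 7 of 8 CSD pups were above every VD pup (0.25, SE 0.05, adjusted p = 0.0173 by limma). Ppp1r15a lost its call in 7 of 37 alternatives (either slide alone, males alone, litter means, the number block, and without the litter of mother 4 or 5). Acin1 lost its call in 11, which were these 7, both settings with scanner-corrected intensities, the deposited matrix, and without VD pup 4. Over the 37 alternatives the difference ranged from -0.43 to -0.31 for Ppp1r15a and from 0.18 to 0.42 for Acin1.

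In the remaining lists none was called. Among death receptors and ligands (8 measured, median -0.04), Tnfsf12 (TWEAK) had the smallest p (-0.19, SE 0.07, adjusted p = 0.194 by limma). In the TNF receptor complex and linear ubiquitin list (13, median 0.01) it was Rbck1 (-0.09, SE 0.04), and in the other BCL2 family and BAG genes (15, median -0.03) it was Bcl2l12 (-0.16, SE 0.06), called in 1 alternative (-0.18, adjusted p = 0.0452 by limma, without the litter of mother 6). The Bcl2a1d probe, which also covers Bcl2a1a, was at 11.08 ± 0.43 in CSD and 11.21 ± 0.32 in VD pups (-0.09, SE 0.19). Among other IAP proteins and antagonists (9, median -0.01), Sept4, whose ARTS product antagonises XIAP, was at -0.26 (SE 0.10, adjusted p = 0.196 by limma), but at 0.01 without the litter of mother 5 and at -0.38 without that of mother 6, where it was called (adjusted p = 0.0113). That last setting called 2265 of all genes. Of the pyroptosis and necroptosis genes (14, 11 of them higher in CSD pups, median 0.07), the gasdermin gene Gsdmc3 was at 0.43 (SE 0.13, adjusted p = 0.136 by limma), with 6 CSD pups above every VD pup. It was called in 1 alternative (0.68, adjusted p = 0.0484, without the litter of mother 4), and its difference ranged from 0.19 to 0.68. Chchd4, which imports proteins into the mitochondrial intermembrane space and works with AIFM1, led the mitochondrial list (14, median 0.03). All 8 CSD pups (8.26 to 8.40) were above all VD pups (8.08 to 8.25), with a difference of 0.14 (SE 0.03, adjusted p = 0.0624 by limma), and it was called in 4 of 37 alternatives (adjusted p from 0.025 to 0.584). The list that holds Acin1 (9 genes, median -0.04) and that of endoplasmic reticulum stress (8 with Ppp1r15a, median 0.02) had no call apart from those named.

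Cell type markers were read beside these values, because colon tissue mixes epithelium, muscle and immune cells. Of 92 marker genes in 14 lists, 0 were called by limma (1.25% of all genes) and 18 had an unadjusted p under 0.05 (14.5% of all genes). Lymphoid markers had lower means in CSD pups, without a call. All 6 B cell genes had a negative estimate (median -0.41, list mean 8.15 ± 0.36 in CSD and 8.64 ± 0.35 in VD pups, brightest Cd79b), as had 8 of 9 T cell genes (-0.35, 8.01 ± 0.29 and 8.43 ± 0.42, brightest Cd2) and 3 of 4 plasma cell genes (-0.72, 10.33 ± 0.56 and 11.01 ± 0.29, brightest Jchain). List means ranged from 7.65 to 8.66 and 8.17 to 9.06 for B cells, from 7.63 to 8.45 and 8.04 to 9.33 for T cells, and from 9.50 to 11.07 and 10.69 to 11.60 for plasma cells (CSD and VD), so that the groups overlapped in each. Estimates of goblet cell and colonocyte genes were mostly positive, in 6 of 6 goblet cell genes (0.19, 15.50 ± 0.15 and 15.24 ± 0.13, brightest Clca1) and 8 of 9 colonocyte genes (0.17, 14.17 ± 0.14 and 14 ± 0.11, brightest Hoxb13). Those of crypt stem cells were split, with 3 of 5 positive. Spdef, a transcription factor of goblet cells, had the smallest p of all markers (0.29, SE 0.07, adjusted p = 0.0526 by limma), and it was called in 7 of 37 alternatives (0.13 to 0.38, adjusted p from 0.00439 to 0.536). Each of these genes was well above background on at least 1 array. Estimates in the other lists had medians of -0.16 for macrophages, -0.12 for smooth muscle, -0.11 for endothelium, -0.07 for fibroblasts, -0.04 for dividing cells, -0.03 for small intestine (4 of its 8 genes were not well above background), -0.02 for neutrophils, 0.01 for crypt stem cells and 0.03 for enteric neurons and glia. The part of cell composition in the values of Fadd, Xiap, Trp53, Bbc3 and Cycs was not tested.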

How the data were processed

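The authors hybridised colon RNA of each pup on 1 Agilent array and deposited the scanner output (Agilent Feature Extraction 12.0.3.2), in which each spot has a mean intensity, a median background intensity and marks for spots above background, saturated or outlying. They also deposited a matrix of log2 gene values made with limma (3.38 per the submitters' processing notes), used as an alternative. The array design named in the study's methods differs from that in the files, whose gene names and mm9 positions were used. With limma 3.58.1 in R 4.3.3, intensities were corrected by normexp (offset 50), control and outlier spots were left out, and log2 values were quantile normalised. A probe was kept when it exceeded the 5% quantile on 4 arrays or more (56366 of 56605 probes), and probes were averaged by gene name into 36711 genes, of which 218 lacked a value on some array. Delivery and sex entered the limma fit as fixed terms and the mother as a random one (consensus correlation 0.015), as in the study's methods. A gene was called where its p, adjusted by Benjamini-Hochberg over all genes, was under 0.05. The interaction was fitted in the same way (correlation 0.012), and litters with a term per mother. Pups were grouped by the labels.

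The members and lists were chosen with earlier results of these data known. Named in each comparison were members called, otherwise those with an unadjusted p under 0.05 (at most 12), the member of smallest p of each role without one, called genes of the pathway and marker lists, and the gene of smallest p of each pathway list without a call and of all markers. Other genes, and the correlations, were chosen after their values were seen. On simulated data with 200 changed genes, between 12.6% and 15.9% of calls were false. There, genes were drawn independently of each other, without or with a small litter correlation. The share of false calls in the real data was not tested and may differ. Single calls near the threshold are therefore to be read as less certain than their adjusted p. P-values measure the spread between pups of few litters. Alternatives covered background correction, normalisation, probe filter and summary, the deposited matrix, outlier spots, mother, sex, slide, variance model, the number block, and leaving out each litter and pup. Some genes of the lists are not reported here.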

Additional observations from a re-analysis of the deposited data

Results flagged for a closer look

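Of 204 sets of 8 pups checked (members, the other named genes, single probes of the 8 members plotted by probe, list means and the survival minus death quantity), 17 held a pup whose gap to the nearest other pup was too large a share of the group's range by Dixon's criterion. Chance alone marks about 1 in 20. Among members there were 6 in 80 sets.

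CSD pup 8 was low in Bcl2 (9.47, next 9.72) and high in Bik (7.59, next 7.25) and Tradd (14.62, next 14.42). It was also low in Acin1 (8.93, next 9.18) and high in the mean of the pyroptosis and necroptosis genes (11.03, next 10.83). CSD pup 5 was low in Fadd (8.73, next 8.92) and high on 1 Birc3 probe (8.80, next 7.90). In VD pups, pup 8 was low in Bad (12.90, next 13.13), and pup 6 was high in Bcl2l11 (7.65, next 7.48), which came from 1 probe (7.01, next 6.24), and in the mean of the T cell genes (9.33, next 8.60).

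Single probes set further pups apart. On 1 Cflar probe CSD pup 2 was at 10.28 (next 8.73), and on another VD pup 11 was at 10.06 (next 8.92) and CSD pup 7 at 8.52 (next 8.72). CSD pup 9 was at 8.22 on a Bcl2l1 probe (next 7.95) and VD pup 5 at 7.03 on the dimmest Xiap probe (next 7.26). CSD pup 1 was at 9.54 in the mean of the crypt stem cell genes (next 9.39).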

How the results depend on the processing

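Of 37 alternatives to the delivery comparison by gene, 34 called 0 members (of 40, or of 39 with probes well above background). The exceptions were the brightest probe per gene (1, Xiap), the litter of mother 3 left out (1, Trp53) and the litter of mother 6 left out (3, Fadd, Trp53 and Xiap). Of all genes, 506, 212 and 2265 were called in these settings, against 460 in the main fit. With each probe fitted on its own, 1 of 78 member probes was called. Fadd ranged from -0.20 to -0.12, Xiap from 0.09 to 0.30, Trp53 from 0.13 to 0.48, Bbc3 from -0.42 to -0.17 and Cycs from 0.07 to 0.19, each without a change of sign. The number of all genes called depended far more on the setting. It was 243 with an offset of 16, 177 with scanner-corrected intensities and quantile normalisation, 164 with scanner-corrected intensities scaled to the 75th percentile, 170 in the deposited matrix, 992 without sex, and 980 probes. It was 0 with litter means, 0 in males, 11 on slide 1 and 0 on slide 2, and without the litter of mother 3, 4, 5 or 6 it was 212, 138, 189 or 2265. Leaving out 1 pup gave 145 (VD pup 4) to 617 (VD pup 7) genes, and 0 members. It was lower by more than 1.5 times without CSD pup 1 (278), 2 (300), 3 (238), 5 (271), 6 (257), 7 (180) or 9 (222), or VD pup 5 (243) or 11 (304). The cause was not tested. Scanner-corrected intensities scaled to the 75th percentile, which changes background correction and normalisation together, moved the median of all genes to 0.04, with 21 members higher and 19 lower.

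For the title numbers shared by both groups (5 to 9), correlations of the pups' deviations lay between -0.05 and 0.22. With these 5 numbers, 2 CSD and 2 VD pups correlated best with the pup of their own number. So few values do not settle whether the numbers pair the pups. With these numbers as a replicate block, delivery called 0 genes and 0 members, and Fadd was at -0.19, Xiap at 0.16, Trp53 at 0.17, Bbc3 at -0.27 and Cycs at 0.18. The block could not be fitted for sex.

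Over the 37 alternatives, between 13 and 26 members had a positive estimate. Among the named genes, 5 changed sign. Bcl2l1 was at -0.01 with the brightest probe. Bok was at 0.03 in males, 0.04 on slide 2 and 0.13 without the litter of mother 5. Mlkl was at 0.07 in males, 0.08 on slide 1, 0.02 with the block, 0.13 without mother 5 and 0.01 without VD pup 4. Casp12 was at 0.11 on slide 2, 0.04 without mother 3 or 6, and at 0 to 0.02 without CSD pup 3 or 8 (0.02) or VD pup 5 (0.01), 7 (0) or 8 (0). Sept4, at -0.26 with all pups, was at 0.01 without mother 5 and -0.38 without mother 6.

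For sex, 10 genes were called on slide 1, 11 on slide 2, 11 without mother 5, and 17 to 28 with 1 pup left out (members 0 to 1). The interaction called 5 genes with scanner-corrected intensities and quantile normalisation, 2 with slide as a fixed effect, and 4, 2 or 3 without mother 3, 4 or 6, and 1 to 127 with 1 pup left out, 127 without VD pup 4 and 72 without VD pup 5, the only VD females. Between CSD litters it was 57 with probes well above background, 69 with the brightest probe, 15 on slide 1, 2 on slide 2 and 23 to 44 with 1 pup left out. Between VD litters it was 150 with scanner-corrected intensities and quantile normalisation, 109 with these scaled to the 75th percentile, 482 with probes well above background (members 1, Casp6), 161 without sex, 204 in males, 60 on slide 1, 1 on slide 2 and 77 to 370 with 1 pup left out (members 0 to 1).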
